A study of Mus musculus with 155 samples.

Results

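H3.3K27L ESCs were compared with WT-H3.3 ESCs after 24 and 72 h of Dox, in the RNA-seq libraries of these 2 lines at these 2 Dox times, less 1 library of very low depth. This gave 3 H3.3K27L libraries (replicates 1 and 2 at 24 h and replicate 1 at 72 h) and 4 WT-H3.3 libraries (2 at each Dox time), 7 of the 32 ESC RNA libraries and of the 155 samples of the study. The study used KH2 cells, mouse ESCs with a Dox-inducible locus, and asked how a mutation of lysine 27 of histone H3.3 acts when it does and when it does not inhibit PRC2. Both lines carried 1 added H3.3 transgene with SNAP and HA tags at that locus and kept their own H3.3 genes, so the lines differed by design in residue 27 of the added histone, which was the wild-type lysine in WT-H3.3 and leucine in H3.3K27L. All cells grew on gelatin in serum medium with LIF and 2i, and Dox was present in both lines. How many clones stood behind each line is not given in the sources used here, so the effect of the added histone and any other difference between the lines cannot be told apart.

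H3.3 is the H3 variant that is put into chromatin outside of replication, at active genes as well as at silent repeats. Its lysine 27 can be acetylated at active promoters and enhancers or trimethylated by PRC2 at silent developmental genes. Methionine at this position inhibits PRC2 throughout the nucleus, whereas leucine only removes the site that would be modified, so H3.3K27L serves to separate the lost site from the inhibited enzyme.

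The H3.3K27L libraries held 6538259 to 8533073 counts and the WT-H3.3 libraries 8245552 to 14894977. The library left out, replicate 2 of H3.3K27L at 72 h, held 68378 counts. The H3.3K27L libraries stood apart from WT-H3.3, and those numbered 1 from those numbered 2, by whole chromosomes. Genes of chromosome 14 had a median log2 difference from WT-H3.3 of 0.591 (24 h) and 0.523 (72 h) in the libraries numbered 1 and of −0.00574 in replicate 2 at 24 h. Genes of chromosome 8 were at −0.529 in replicate 2 at 24 h and at 0.0181 and −0.0567 in the libraries numbered 1. The same held at 4 and 8 h, with chromosome 14 at 0.577 and 0.581 in replicate 1 and at 0.0288 and −0.0241 in replicate 2, and chromosome 8 at −0.509 and −0.492 in replicate 2. The 3 H3.3K27L libraries compared thus are 2 of one kind and 1 of the other, and the SD below hold this difference as part of the spread. The tests counted all 3 as independent. If the 2 of one kind are not, n = 3 and the p-values below overstate the replication. Whether the 2 kinds are 1 clone is not given in the sources used here. The 4 genes of chromosome Y with enough counts were at −3.03 to −5.81 in every H3.3K27L library. Genes of these 3 chromosomes were set aside. The study's methods report a potential duplication of a chromosome in all of its clones, seen by cytogenetic karyotyping and not by e-karyotyping. Among the 3 set aside here, it is the chromosome at −0.529 in replicate 2 of H3.3K27L at 24 h. Whether that duplication differs between the lines was not tested. Markers of undifferentiated ESCs summed to 5850 to 6950 CPM (counts scaled to the size of the library, and for markers not by TMM factors) in H3.3K27L libraries and 4900 to 6280 in WT-H3.3 libraries. The 8 fibroblast markers, which feeder cells would bring, summed to 3.91 to 12.7 and 3.59 to 11.8 CPM, with 6 of the 8 under 1 CPM in every library. The sums of the markers of extraembryonic endoderm, trophoblast, neural cells, and blood and endothelium overlapped between the lines. Some single markers did not. Dab2 (0.17 to 1.14 CPM in H3.3K27L, 2.06 to 6.04 in WT-H3.3), Cubn and Gata3 were lower in all H3.3K27L libraries. Pdgfra was higher (1.64 to 3.51 and 1.01 to 1.2 CPM). So were the ESC markers Sox2 (510 to 541 and 383 to 501 CPM) and Klf4 (566 to 634 and 259 to 459 CPM). The fibroblast marker Lum was at 0 CPM in all H3.3K27L libraries and at 0.126 to 0.59 CPM in WT-H3.3. The neural sum includes Tubb3, a gene of a chromosome set aside. In bulk libraries, fewer cells of a type and less RNA per cell cannot be told apart.

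Of 12470 genes tested, 32 differed between the lines, which is 0.257%. A gene was called where edgeR's quasi-likelihood test, with Dox time as a factor, gave a Benjamini-Hochberg adjusted p under 0.05 and the fold was above 2 or below 0.5. In H3.3K27L cells 4 of these genes were higher (0.0321% of the genes tested) and 28 were lower (0.225%), while the median log2 fold change of all genes was −0.00352, with 6173 genes above 0 and 6297 below. In all 32 the H3.3K27L and WT-H3.3 libraries did not overlap. The same libraries made the calls, so this outcome was largely fixed by the selection. Among all genes tested, 531 were higher (4.26%) and 721 were lower (5.78%) without overlap. The higher genes were Grb10, Gata2, Tlx2 and Tbx20. The lower genes included the imprinted genes Mest, Peg3 and Mcts2, the homeobox genes Hoxd8 and Hoxd9, the germline kinase gene Stk31 and the 2-cell gene Usp17lc. By chromosome, 10 of the 32 lay on chromosome 6, with 8 lower and 2 higher. Tested genes on chromosome 6 numbered 157 in the part toward its end and 438 in the rest of it. On the other chromosomes, of 11069 tested genes with a position, 16 were called lower and 2 higher. The number of calls rested on single libraries. Without replicate 1 of H3.3K27L at 72 h no gene was called (896 at an unadjusted p under 0.05), and the same held without replicate 1 of WT-H3.3 at 72 h (1016 genes). Without replicate 2 of H3.3K27L at 24 h 153 were called, and the DESeq2 test called 151. The called genes kept their direction in every such setting in which they were tested. Replicates were biological repeats made weeks apart, per the study's methods.

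**Figure D1:**
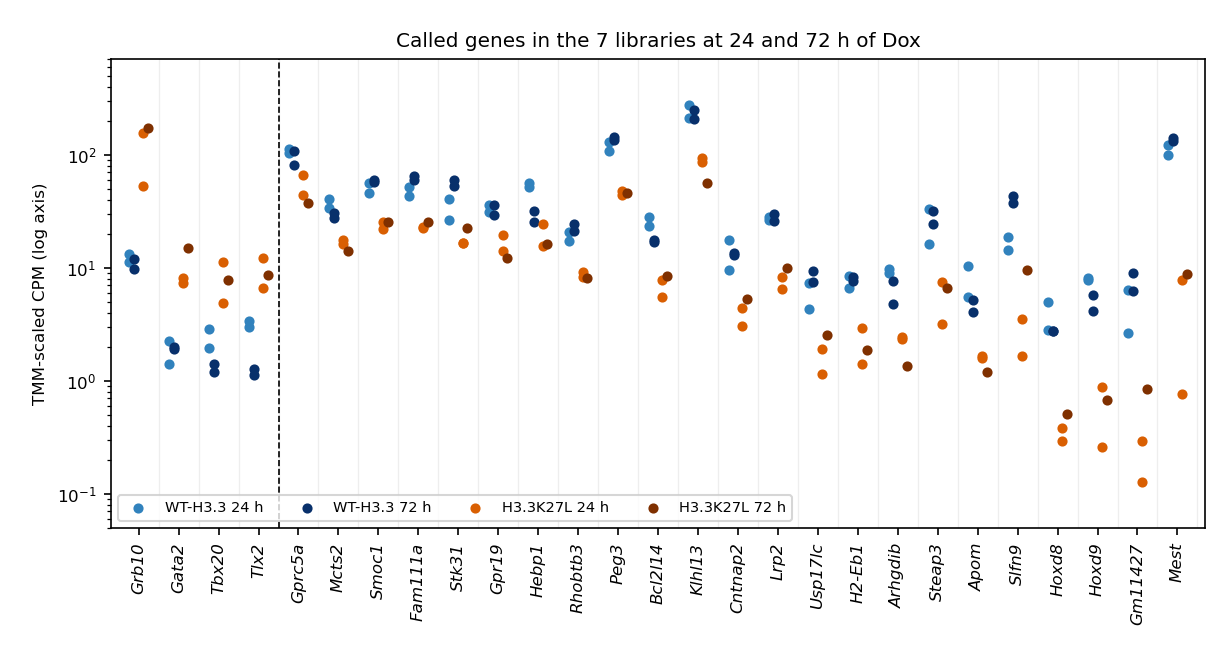
TMM-scaled CPM (log axis) of the called genes that have a symbol, with 1 left out, in the WT-H3.3 libraries (blue) and the H3.3K27L libraries (orange and brown) at 24 and 72 h of Dox. The 4 genes left of the dashed line were higher in all 3 H3.3K27L libraries than in all 4 WT-H3.3 libraries, and the genes right of it were lower in all 3.

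Imprinted genes, which are transcribed from only the maternal or only the paternal copy, were among the genes with the most marked differences. Among the 12 tested genes of a list of 18 maternally expressed genes, Grb10 rose and none fell. Among the 19 tested of 24 paternally expressed genes, Mest, Peg3 and Mcts2 fell and none rose. Promoter sequences of these 4 genes are shown because imprinting is set by methylation of CG pairs at control regions. A control region can lie away from the start shown, and whether these windows lie in one was not tested. They come from RefSeq (GRCm38.p6, 300 bases from 250 before to 50 after a transcript start, 5′ to 3′ on the gene's strand, CG in capitals), and where a gene had several starts the one with most CG pairs is given.
Grb10, chr11:12037371-12037670, minus strand: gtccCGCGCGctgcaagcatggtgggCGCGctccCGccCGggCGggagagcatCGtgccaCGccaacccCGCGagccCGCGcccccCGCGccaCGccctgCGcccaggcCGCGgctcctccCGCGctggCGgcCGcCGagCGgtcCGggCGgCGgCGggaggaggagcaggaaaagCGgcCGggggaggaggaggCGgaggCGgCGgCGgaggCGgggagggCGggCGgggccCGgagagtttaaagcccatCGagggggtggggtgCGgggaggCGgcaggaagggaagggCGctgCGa
Mest, chr6:30737800-30738099, plus strand: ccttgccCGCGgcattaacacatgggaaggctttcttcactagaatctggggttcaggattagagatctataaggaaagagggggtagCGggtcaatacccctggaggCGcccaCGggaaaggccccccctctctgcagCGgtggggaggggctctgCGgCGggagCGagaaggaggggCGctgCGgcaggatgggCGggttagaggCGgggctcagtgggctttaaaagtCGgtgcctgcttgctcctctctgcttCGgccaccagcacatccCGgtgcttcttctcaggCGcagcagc
Peg3, chr7:6730370-6730669, minus strand: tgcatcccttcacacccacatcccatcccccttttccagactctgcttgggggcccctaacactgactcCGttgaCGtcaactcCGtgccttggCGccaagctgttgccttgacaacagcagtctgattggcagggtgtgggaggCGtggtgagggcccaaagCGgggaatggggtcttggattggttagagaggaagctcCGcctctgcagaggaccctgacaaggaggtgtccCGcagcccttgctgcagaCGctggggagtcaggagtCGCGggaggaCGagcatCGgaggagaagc
Mcts2, chr2:152686898-152687197, plus strand: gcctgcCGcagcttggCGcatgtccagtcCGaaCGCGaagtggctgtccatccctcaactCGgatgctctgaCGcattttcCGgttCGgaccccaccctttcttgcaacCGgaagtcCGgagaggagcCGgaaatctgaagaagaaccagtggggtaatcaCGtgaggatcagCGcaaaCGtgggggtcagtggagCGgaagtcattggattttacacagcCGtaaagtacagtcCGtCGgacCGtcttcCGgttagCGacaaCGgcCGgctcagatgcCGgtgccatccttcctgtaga

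These windows hold 45 CG pairs for Grb10, 17 for Mest, 13 for Peg3 and 25 for Mcts2, where the median over 32851 RefSeq promoters of this length was 7. The choice of start matters, since the window with fewest pairs held 9 for Grb10 (2 starts) and 8 for Mest (3 starts). At least as many pairs as in the Grb10 window shown were found in 1.93% of all promoters, and at least as many as in the Peg3 window in 37.9%. The letters TGCCGC, the hexamer that ZFP57 binds at methylated imprinting control regions, occurred on either strand 1 time for Grb10, 2 times for Mest and 1 time for Mcts2, and not for Peg3, and 11.6% of all promoters hold them. These matches describe the sequence only, since methylation was not measured.

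Grb10 (chr11:11830511-11938686 of NCBIM37, the mm9 build, also used for the other gene positions below) encodes an adaptor that dampens signalling from the insulin and IGF1 receptors and is expressed from the maternal copy in most tissues. Its level was 157 and 53.1 CPM in the 24 h libraries of H3.3K27L and 171 CPM in that of 72 h, against 13.2 and 11.2 CPM at 24 h and 12.1 and 9.86 CPM at 72 h in WT-H3.3. All H3.3K27L libraries were high, with replicate 2 at 24 h the least so. The mean was 127 ± 64.4 CPM (SD, n = 3) against 11.6 ± 1.41 (SD, n = 4), an 11.1-fold rise (log2 3.47, SE 0.34, edgeR adjusted p = 0.00351).

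Mest (chr6:30673547-30698457), an enzyme of the alpha/beta hydrolase fold that is expressed from the paternal copy, stood at 7.75 and 0.773 CPM at 24 h and 8.87 CPM at 72 h in H3.3K27L, and at 99.9 and 121 CPM at 24 h and 134 and 141 CPM at 72 h in WT-H3.3. The H3.3K27L libraries were all low, and replicate 2 at 24 h was nearly without transcript. The mean was 5.80 ± 4.39 (SD, n = 3) against 124 ± 18.0 CPM (SD, n = 4), and WT-H3.3 was 21.2-fold higher in the fit (log2 −4.40, SE 0.45, edgeR adjusted p = 0.00351). Copg2, which overlaps Mest on the other strand, had means of 73.2 CPM in H3.3K27L and 76.2 in WT-H3.3 (log2 −0.08, edgeR adjusted p = 0.851).

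Peg3 (chr7:6656603-6683132), a paternally expressed gene of a zinc finger protein, differed with the least spread. Its level was 43.8, 48.2 and 46.2 CPM in the H3.3K27L libraries and 108, 131, 135 and 144 CPM in the WT-H3.3 libraries. Every H3.3K27L library was thus well below the lowest WT-H3.3 library, and the log2 fold change was −1.46 (SE 0.14, edgeR adjusted p = 0.00351). Mcts2 (chr2:152512884-152513676), a paternally expressed retrogene that lies within H13, was at 16.2, 17.5 and 14 CPM in H3.3K27L and at 41.0, 34.2, 27.4 and 30.9 in WT-H3.3. The lines did not overlap here either (log2 −1.12, SE 0.16, edgeR adjusted p = 0.0201). H13, which is annotated on the same strand over Mcts2, had a mean of 37.2 CPM in H3.3K27L and 26.8 in WT-H3.3 (log2 0.46, edgeR adjusted p = 0.208), so reads shared by the 2 genes are an uncertainty for both.

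The other imprinted genes did not pass the test. Over the 19 paternally expressed genes the median log2 fold change was −0.78, with 17 below 0, and 8 had libraries that did not overlap and were lower (1 higher). The 12 maternally expressed genes had a median of 0.34 with 8 above 0, and 4 were higher and 2 lower without overlap. Among all genes tested 4.26% were higher and 5.78% lower without overlap. All 3 H3.3K27L libraries had a median under 0 for the first list (−0.592 to −0.876) and above 0 for the second (0.278 to 0.381). Phlda2, a placental growth regulator, was at 19.3, 22.4 and 14.8 CPM in H3.3K27L and 8.54, 9.60, 6.52 and 9.20 in WT-H3.3, with a log2 fold change of 1.09 and an edgeR adjusted p of 0.0572. On the maternal list H19, a long noncoding RNA, had a log2 fold change of −2.42 (edgeR adjusted p = 0.117), the opposite sign to Grb10. Among the paternal genes not called Nap1l5 (−2.45), Dlk1 (−1.55) and Usp29 (−1.30) had the lowest log2 fold changes and Zdbf2 the highest (0.44). Dnmt3a (log2 −0.57, edgeR adjusted p = 0.153) encodes an enzyme that places methylation in the germline and the early embryo. Dnmt3l (−1.35, edgeR adjusted p = 0.152) encodes a cofactor of it. Both had lower levels in all H3.3K27L libraries and were not called. In the list of 16 genes for DNA methylation and its removal 8 values were above and 8 below 0, with a median of 0.05.

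**Figure D2:**
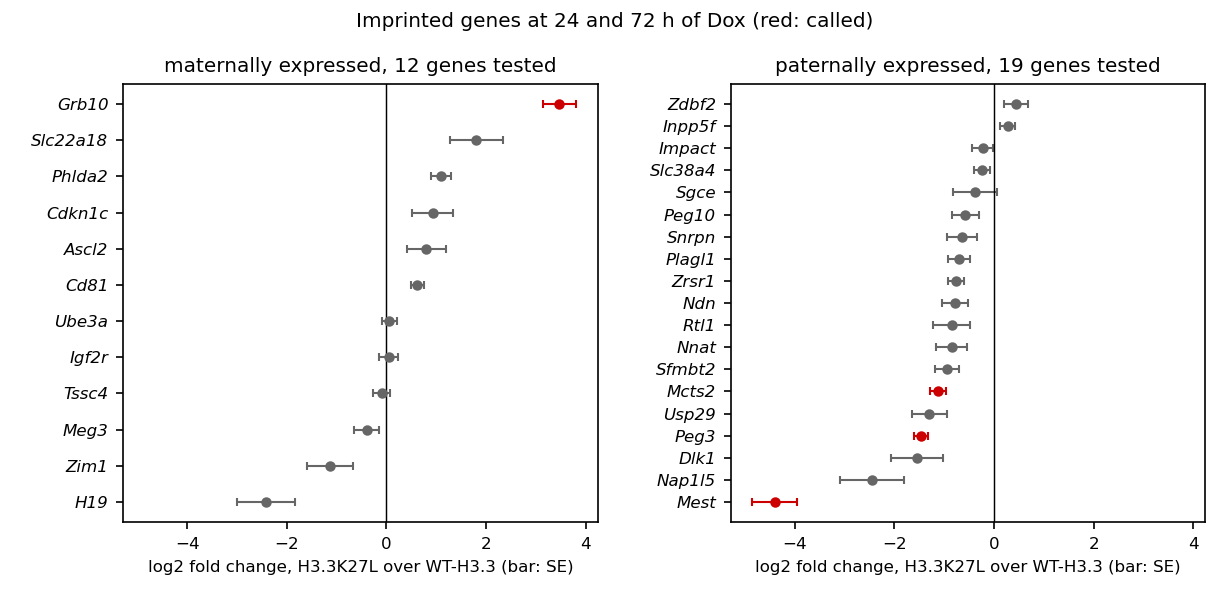
Log2 fold change of H3.3K27L over WT-H3.3 at 24 and 72 h of Dox (x axis; points, estimate; bars, SE) for the 12 maternally and 19 paternally expressed genes tested, ordered by value, with called genes in red. Grb10 is the called gene on the maternal side at 3.47, and Mest, Peg3 and Mcts2 are the called genes on the paternal side at −4.40, −1.46 and −1.12.

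Genes of the germline and of the 2-cell state had lower levels almost throughout, with few calls. The 2-cell genes are active at zygotic genome activation and in a small share of ESCs in culture. Of 21 listed, 11 were tested, and all 11 had a log2 fold change below 0 (median −1.74). In 8 of the 11 the libraries did not overlap, where 5.78% of all genes tested were lower in this way. Only 1, Usp17lc, fell beyond the threshold. Usp17lc, a deubiquitinase gene, was at 1.90, 1.16 and 2.56 CPM in H3.3K27L and at 7.38, 4.34, 9.36 and 7.49 in WT-H3.3 (log2 −1.85, SE 0.32, edgeR adjusted p = 0.0483). All H3.3K27L libraries were thus under the lowest WT-H3.3 library. Usp17lb had a log2 fold change of −2.10 (edgeR adjusted p = 0.0636) and Zscan4d of −1.89 (edgeR adjusted p = 0.0849). Usp17l and Zscan4 are families of near-identical copies, so their members share reads and are not independent. Without replicate 1 of WT-H3.3 at 24 h the median of this list was −1.45.

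In the germline list of 28 genes 23 were tested, 22 were below 0 (median −0.96) and 1 fell, Stk31. This gene encodes a kinase-like protein with a Tudor domain that is found in germ cells. Stk31 was at 16.5, 16.5 and 22.4 CPM in H3.3K27L and at 40.6, 26.7, 59.8 and 53.5 in WT-H3.3, higher in all 4 WT-H3.3 libraries (log2 −1.15, SE 0.19, edgeR adjusted p = 0.0375). The other 22 did not pass. Fkbp6, needed in meiosis and in the piRNA pathway, was closest (log2 −1.45, edgeR adjusted p = 0.0552). Libraries did not overlap in 7 of the 23, all lower, against 5.78% of all genes tested. Magea4 was at 0 CPM in all 3 H3.3K27L libraries and at 0.394 to 3.97 CPM in WT-H3.3. Xlr3a was at 0.387 to 1.88 and 2.10 to 11.7 CPM. The mean level of WT-H3.3 was thus low for both.

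Among developmental genes that PRC2 silences in ESCs, differences went both ways. Of 62 listed only 23 had enough counts to be tested, and Hoxd9 and Hoxd8 fell while Gata2 rose. In these 23 genes 16 were below 0 (median −0.54), and 5 were lower and 3 higher without overlap. The shares of all genes tested were 5.78% lower and 4.26% higher. Gata2 (chr6:88143885-88157024), a transcription factor of blood progenitors and of trophoblast, was at 8.19 and 7.35 CPM at 24 h and 15 CPM at 72 h in H3.3K27L. In WT-H3.3 it was at 1.42 and 2.23 CPM at 24 h and 1.91 and 1.99 CPM at 72 h. Its lowest H3.3K27L library was above every WT-H3.3 library, and it rose 5.60-fold (log2 2.49, SE 0.28, edgeR adjusted p = 0.00415).

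Hoxd8 and Hoxd9 are neighbours in the Hoxd cluster, whose homeobox genes pattern the body axis and the limbs. Hoxd9 (chr2:74535737-74538265) had 6, 2 and 4 counts in the H3.3K27L libraries and 63, 59, 82 and 44 in the WT-H3.3 libraries. Hoxd8 (chr2:74542672-74545990) had 2, 3 and 3 counts against 22, 38, 39 and 29. In both genes each H3.3K27L library was at a few counts and each WT-H3.3 library at 22 or more. The log2 fold changes were −3.51 for Hoxd9 (SE 0.41, edgeR adjusted p = 0.00606) and −3.10 for Hoxd8 (SE 0.46, edgeR adjusted p = 0.0256). Another member of the cluster, Hoxd13, was not called (log2 −1.08, edgeR adjusted p = 0.228).

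The 2 other higher genes are also transcription factors of later tissues. Tlx2, a homeobox factor of enteric neurons, was at 12.3, 6.70 and 8.70 CPM in H3.3K27L and at 2.98, 3.42, 1.28 and 1.14 in WT-H3.3 (log2 2.06, SE 0.34, edgeR adjusted p = 0.0402). Tbx20, a T-box factor of the heart, was at 11.3, 4.90 and 7.85 CPM against 1.94, 2.89, 1.21 and 1.42 CPM (log2 2.08, SE 0.36, edgeR adjusted p = 0.0483). In both genes H3.3K27L replicate 2 at 24 h was the lowest of its line and still above all WT-H3.3 libraries. Of 18 germ layer genes 7 had enough counts to be tested (median −0.30) and of 24 extraembryonic endoderm genes 8 (0.17), and none was called. Of 13 trophoblast genes tested Gata2 alone was called, with 7 above and 6 below 0 (median 0.15). Of the 4 mesoderm markers (CPM without TMM factors), T was at 3.95, 19.9 and 3.40 CPM in H3.3K27L and 1.86 to 4.03 in WT-H3.3, so that only replicate 2 at 24 h lay above the WT-H3.3 range. Kdr was at 0.504 to 3.40 and 0.532 to 1.31 CPM, Mixl1 lower without overlap at 1.01 to 1.19 and 1.40 to 2.13 CPM, and Mesp1 at 0 in all H3.3K27L libraries and at most 0.221 CPM in WT-H3.3. Their sum was 6.73 to 21.4 CPM in H3.3K27L and 4.53 to 6.54 in WT-H3.3. The part of mesoderm cells in the levels of Gata2, Tlx2 and Tbx20 was not tested.

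Several called genes with no list in common were well expressed. Klhl13 (chrX:22796397-22942208), a substrate adaptor of a Cullin 3 ubiquitin ligase, was at 87.2, 93.5 and 56.5 CPM in H3.3K27L and 274, 211, 248 and 206 in WT-H3.3. It fell to a fraction of 0.319 of the WT-H3.3 level (log2 −1.65, SE 0.18, edgeR adjusted p = 0.00351), with every H3.3K27L library under every WT-H3.3 library. Lrp2, the endocytic receptor megalin, was at 8.34, 6.58 and 10.1 CPM against 28.2, 26.3, 30.3 and 26.0 CPM (log2 −1.72, SE 0.19, edgeR adjusted p = 0.00351). Slfn9, a gene of the Schlafen family, was at 3.51 and 1.68 CPM at 24 h and 9.56 CPM at 72 h, against 18.8 and 14.5 CPM at 24 h and 43.0 and 37.3 CPM at 72 h. It was higher at 72 than at 24 h in both lines and lower in H3.3K27L at each Dox time (log2 −2.39, SE 0.26, edgeR adjusted p = 0.00351). Steap3, an endosomal iron reductase, was at 3.22 to 7.48 CPM in H3.3K27L and 16.4 to 33.1 in WT-H3.3 (log2 −2.15, edgeR adjusted p = 0.0256). Fam111a (log2 −1.15), a serine protease gene, Smoc1 (−1.14), a secreted modulator of BMP signalling, and Rhobtb3 (−1.26) fell by smaller amounts with edgeR adjusted p-values of 0.0140, 0.0140 and 0.0256.

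Further calls, named here after their values were seen, were mostly of low level. Apom, an apolipoprotein (log2 −2.17), H2-Eb1, an MHC class II chain (−1.91), and Cntnap2, a neurexin family gene (−1.65), had means of 1.49 to 4.25 CPM in H3.3K27L and 6.30 to 13.5 in WT-H3.3. Gm11427 (log2 −3.73) and 4 genes without a position in the annotation were also called. Of those 4 ENSMUSG00000116295.1 had the most negative fold change of all calls (log2 −4.94, SE 0.52, edgeR adjusted p = 0.00351), at 0.293, 0.902 and 0.682 CPM against 32, 10.7, 19.5 and 14.6 CPM. In all, 11 of the 28 called genes with a position are overlapped by another annotated gene and 3 by one that was tested (Mest, Mcts2 and Cntnap2).

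Part of the lower genes sat together near the end of chromosome 6. Arhgdib (chr6:136872044-136890420), Bcl2l14, a BCL2 family gene (chr6:134346336-134388754), the receptor genes Gpr19 (chr6:134819111-134847943) and Gprc5a (chr6:135015669-135034727), and Hebp1, which encodes a heme-binding protein (chr6:135087537-135118233), all fell, with log2 fold changes of −2.04, −1.59, −1.16, −1.11 and −1.20. Gprc5a was at 44.6, 65.9 and 37.9 CPM in H3.3K27L and 105, 113, 107 and 82.0 in WT-H3.3. Arhgdib was at 2.34, 2.45 and 1.37 CPM against 9.06, 9.73, 7.73 and 4.84 CPM. In these examples the lines did not overlap.

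The segment from chr6:125000001-145000000, whose ends were set after the values were seen, held 76 tested genes. Of these 69 were below 0 and 7 above, with a median log2 fold change of −0.574 (a fold of 0.672). Without overlap 37 were lower and 1 higher, against 5.78% and 4.26% of all genes tested. In this segment 5 of the 76 were called, all lower. On chromosome 6 before the bin that precedes the segment the median of 438 genes was −0.0446, and on the other chromosomes that of 11069 genes was 0.00485. In bins of 5 Mb the difference was present in each H3.3K27L library. Bin medians ran over the 7 H3.3K27L libraries of all Dox times from −0.46 to −0.658 in the first bin of the segment, from −0.732 to −0.854 in the second, from −0.573 to −0.899 in the next and from −0.274 to −0.711 in the last. In the bin after the segment they were −0.0141 to −0.109. Of 318 bins of the genome with at least 10 genes, 3 had all 7 libraries under −0.4, and all 3 were neighbours in this segment, while none had all 7 above 0.4. In H3.3K27M libraries the 4 bins were at −0.223 to 0.287. Aebp2, which encodes a PRC2 cofactor, lies in the segment and was at 100, 107 and 123 CPM in H3.3K27L and 141, 175, 171 and 199 in WT-H3.3 (log2 −0.60, edgeR adjusted p = 0.111, not called). No measure of DNA copy number was used here, and its part in these differences was not tested.

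**Figure D3:**
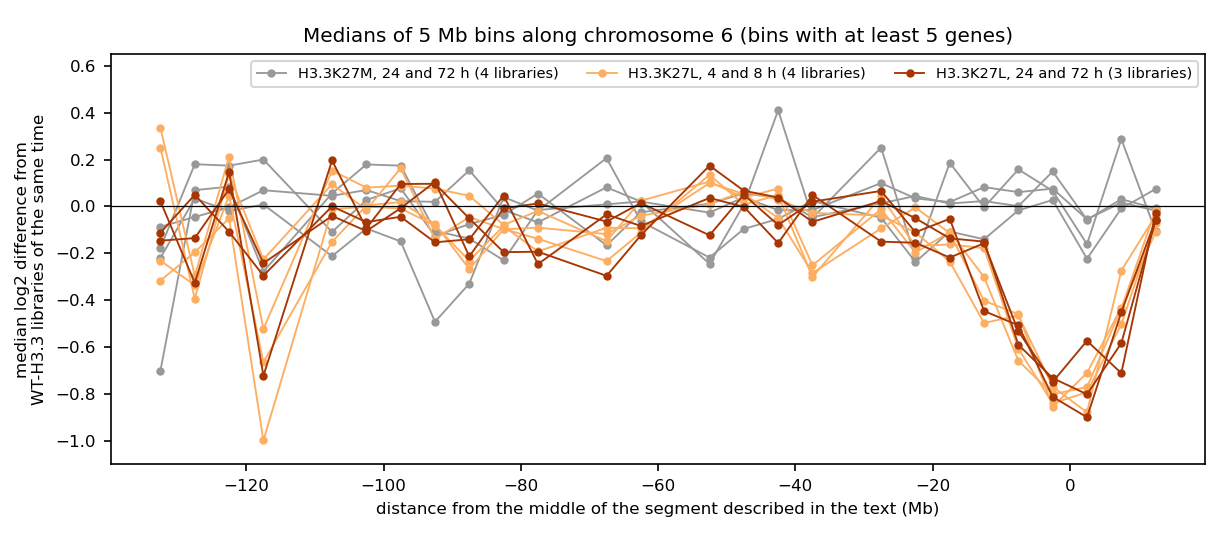
Median log2 difference from the WT-H3.3 libraries of the same Dox time in bins of 5 Mb along chromosome 6 (y axis), against the distance from the middle of the segment in Mb (x axis), with 1 line for each library of H3.3K27L (brown, 24 and 72 h; orange, 4 and 8 h) and H3.3K27M (grey). All 7 H3.3K27L lines drop below −0.4 in the first 3 bins of the segment, and the single low bin on the far left holds 5 genes.

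None of the genes that encode H3.3 or the machinery around lysine 27 was called. H3f3b was at 580, 627 and 669 CPM in H3.3K27L and 764, 604, 566 and 648 in WT-H3.3 (log2 −0.05, SE 0.15, edgeR adjusted p = 0.915). H3f3a was at 118, 161 and 100 CPM against 203, 118, 87.3 and 71.3 CPM (log2 0.02, SE 0.21, edgeR adjusted p = 0.981). The libraries overlapped in both genes, and the sign of these small values depended on the setting. The 16 tested genes for H3.3 and H3 chaperones had a median of 0.01, with 9 above and 7 below 0 and none without overlap. None of 13 PRC2 subunit genes was called (median 0.05, 8 above and 5 below 0). Ezhip, an inhibitor of PRC2, was the lowest of these at 0.439, 1.16 and 0.171 CPM against 3.23, 1.71, 4.68 and 2.09 CPM (log2 −2.19, edgeR adjusted p = 0.168). None of 23 PRC1 subunit genes (median 0.02, 12 above 0) and none of 12 genes for demethylases, acetyltransferases and deacetylases of lysine 27 (median 0.06, 9 above 0) was called.

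Pluripotency and signalling genes gave small differences without a call. Of 20 naive pluripotency genes 17 were above 0 (median 0.22), 5 were higher without overlap (against 4.26% of all genes tested) and none was called. Klf4, a reprogramming factor, was highest at 634, 590 and 568 CPM in H3.3K27L and 266, 454, 318 and 373 in WT-H3.3 (log2 0.75, edgeR adjusted p = 0.117). Of 14 Wnt targets and feedback genes 12 were above 0 (median 0.45). Notum, a secreted enzyme that inactivates Wnt ligands, had the lowest adjusted p of them (log2 0.90, edgeR adjusted p = 0.0532). It was at 39.1, 44.0 and 33.4 CPM against 20.3, 20.9, 17.8 and 22.6 CPM, and its fold of 1.87 was also under the threshold. For FGF and ERK targets the median over 19 genes was −0.20, and for Nodal and BMP signalling over 14 genes −0.03. The library medians of the FGF and ERK list ran from −0.873 (72 h) to 0.197, and those of the Wnt list from 0.0868 (72 h) to 0.798.

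Metabolic lists leaned to one side in the fit without any call, and for cholesterol synthesis not in every library. The medians of H3.3K27L replicates 1 and 2 at 24 h and replicate 1 at 72 h were 0.102, −0.208 and −0.303 for cholesterol synthesis. They were 0.0346, 0.127 and 0.455 for HIF targets and 0.21, 0.317 and 0.242 for glycolysis. Of 19 glycolysis genes 18 were above 0 (median 0.28), of 21 HIF targets 17 were above 0 (0.33), and of 20 cholesterol synthesis genes 15 were below 0 (−0.13). None was called in the lists for DNA replication (26 tested, median −0.05), mitosis (23, 0.01), p53 targets (20, 0.08), interferon-stimulated genes (8, 0.03), the unfolded protein and integrated stress response (22, 0.02), the primed epiblast (9, −0.01), and for fibroblast (9, 0.03), neural (8, 0.02) and epithelial genes (14, 0.03).

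**Figure D4:**
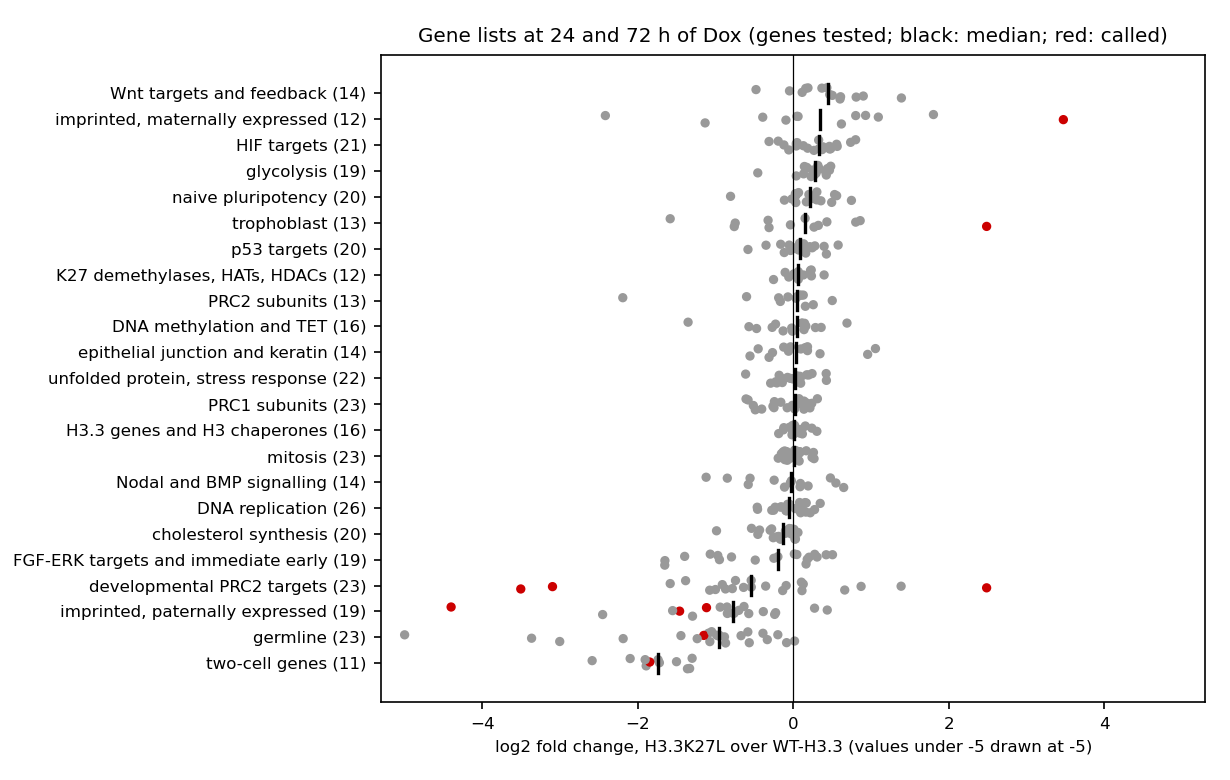
Log2 fold change of H3.3K27L over WT-H3.3 at 24 and 72 h of Dox (x axis) of each tested gene (points) in the gene lists with 10 or more genes tested, ordered by their median (black bar), with called genes in red and the number tested in brackets. The 2-cell, germline and paternally expressed imprinted lists have the lowest medians, at −1.74, −0.96 and −0.78.

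The comparison at 4 and 8 h of Dox, which used 4 other libraries of each line, called 56 of 12810 genes (0.437%), 6 higher (0.0468%) and 50 lower (0.39%). All 32 genes of the later Dox times had the same direction at 4 and 8 h, 31 had libraries that did not overlap, where 4.81% of all genes were higher and 5.76% lower in this way, and 14 were called. These 14 are 14 of 32 later calls and 14 of 56 earlier ones. Of the 56 earlier calls 54 were tested later, all in the same direction. The earlier count too rested on single libraries, with 0 calls without replicate 2 of H3.3K27L at 4 h (1524 genes at an unadjusted p under 0.05) and 209 without replicate 2 of WT-H3.3 at 8 h. In H3.3K27L replicates 1 and 2 Grb10 was at 141 and 47.5 CPM at 4 h and 134 and 42.9 CPM at 8 h, and in WT-H3.3 at 11.1 to 16.5 CPM (log2 2.74, edgeR adjusted p = 0.0368). Mest was at 6.63, 0.275, 7.93 and 0.507 CPM in the same order against 101 to 119 CPM (log2 −4.79, edgeR adjusted p = 0.0359), and Peg3 at 42.5 to 46.3 CPM against 91.2 to 123 CPM (log2 −1.21, edgeR adjusted p = 0.0190). In H3.3K27L both Grb10 and Mest were higher in each library numbered 1 than in each numbered 2, at all Dox times compared. Gata2 had a smaller log2 fold change at 4 and 8 h, 1.26 (edgeR adjusted p = 0.0645), than later.

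Tests of the change itself called no gene, which does not show that the line differences were equal. Fewer genes had an unadjusted p under 0.05 than that level gives without any change, so these tests could detect little. For the line difference at 24 and 72 h less that at 4 and 8 h, edgeR called 0 of 13546 genes (154 at an unadjusted p under 0.05) and DESeq2 0 (123 such genes). For the line difference at 72 h less that at 24 h, with 1 H3.3K27L library at 72 h, edgeR called 0 of 13138 genes (220 at an unadjusted p under 0.05) and DESeq2 0 (116 such genes). For Gata2 the change from early to late was 1.23 on the log2 scale (SE 0.37, edgeR adjusted p = 1). Samples before Dox were not analysed here, so differences between the lines that were there before induction and those that came within 4 h cannot be told apart.

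**Figure D5:**
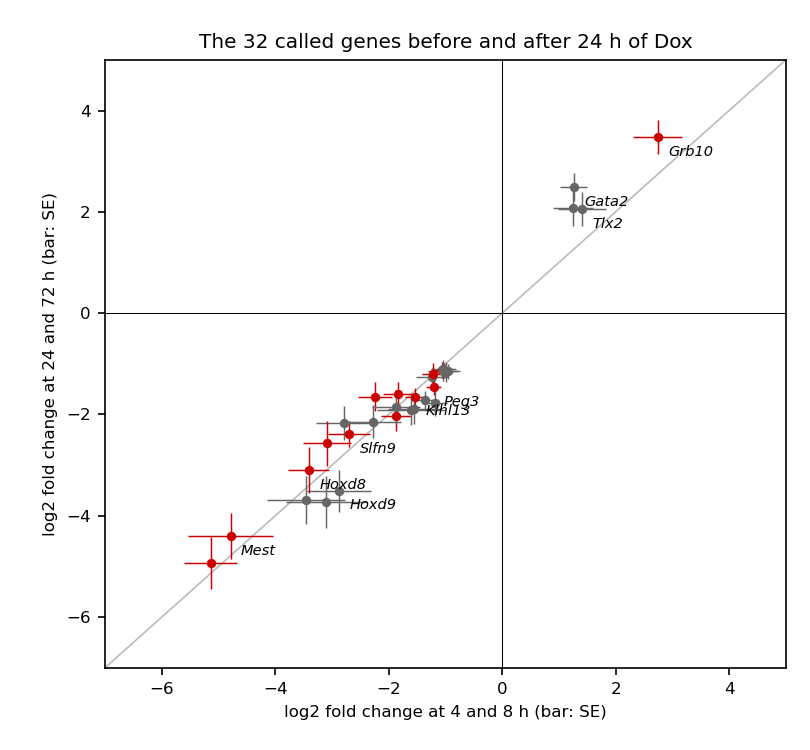
Log2 fold change of H3.3K27L over WT-H3.3 at 24 and 72 h (y axis) against that at 4 and 8 h of Dox (x axis) for the 32 genes called at 24 and 72 h (bars, SE; red, called at 4 and 8 h as well; grey line, equal values). All 32 have the same sign at both, with Grb10 at 2.74 and 3.47 and Mest at −4.79 and −4.40.

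Over all 4 Dox times, CPM without TMM factors set the 7 H3.3K27L libraries beyond all 8 WT-H3.3 libraries for 24 of the 32 genes. Among all 12470 genes 274 did so (2.2%, with 0.65% higher and 1.55% lower). The libraries at 24 and 72 h also made the calls, so this outcome was in part fixed by the selection. For 14 of the 24 the H3.3K27L libraries were also beyond all 8 H3.3K27M libraries and all 8 WT-H3.3 libraries with GSK343. GSK343 inhibits the methyltransferase of PRC2. Of the 274 genes 83 met this condition too, which is 0.666% of the 12470 (0.192% higher and 0.473% lower). Grb10 ran from 42.3 to 171 CPM (median 133) in H3.3K27L, from 9.72 to 16.9 (12.7) in WT-H3.3, from 9.19 to 27.2 (14.6) in H3.3K27M and from 5.14 to 15.6 (9.13) with GSK343. Mest ran from 0.273 to 8.83 CPM in H3.3K27L, from 97.1 to 139 in WT-H3.3, from 72.2 to 130 in H3.3K27M and from 83.7 to 176 with GSK343. Peg3 ran from 42.4 to 47.2, from 90.8 to 142, from 83.2 to 154 and from 70.0 to 139 CPM in the same order. For these 3 genes the H3.3K27L range lay apart from those of the other 3 groups, which overlapped. Hoxd9 was at 0 to 1.26 CPM in H3.3K27L, 4.11 to 8.11 in WT-H3.3, 0.164 to 6.32 in H3.3K27M and 6.15 to 10.3 with GSK343. Its H3.3K27M libraries thus spread from the H3.3K27L to the WT-H3.3 range.

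Between the mutant lines at 24 and 72 h, in a fit of all 3 lines, 77 of 12774 genes were called (0.603%), 22 higher (0.172%) and 55 lower (0.431%) in H3.3K27L. This comparison shares its H3.3K27L libraries with the one above. Grb10 was at 13.7 ± 4.17 CPM in H3.3K27M (SD, n = 4), 3.20 lower on the log2 scale than in H3.3K27L (edgeR adjusted p = 0.00146), and its log2 fold change of H3.3K27M over WT-H3.3 was 0.26. Mest was at 105 ± 25.5 CPM in H3.3K27M (SD, n = 4), with a log2 fold change of H3.3K27L over H3.3K27M of −4.19 (edgeR adjusted p = 0.00146) and of H3.3K27M over WT-H3.3 of −0.22. Peg3 (−1.43 and −0.07), Klhl13 (−1.35 and −0.25) and Tlx2 (2.27 and −0.21) were also called between the mutant lines. Of the 32 genes called against WT-H3.3, all had the same direction here and 20 were called. The 2-cell gene Usp17lc (edgeR adjusted p = 0.201) and the germline gene Stk31 (edgeR adjusted p = 0.163) were not. Their log2 fold changes of H3.3K27M over WT-H3.3 were −0.86 and −0.42, also below 0. Gata2 was at 4.12 ± 2.89 CPM in H3.3K27M (SD, n = 4) and was not called between the mutant lines (log2 1.28, edgeR adjusted p = 0.181), and neither was Hoxd9 (−2.05, edgeR adjusted p = 0.239). Of H3.3K27M against WT-H3.3 the same fit called 0 genes (709 at an unadjusted p under 0.05).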

How the data were processed

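The authors made libraries from ESC RNA with a 3′ or an mRNA kit (which for each library is not given in the sources used here), aligned single-end reads to mm9 with STAR 2.7.1 (per the submitters' notes), and deposited raw counts per gene, with 55471 genes in the ESC table. Of these 32589 had a position in the annotation of NCBIM37 and held 98.1% of all counts. Genes of chromosomes 8 (2532), 14 (2525) and Y (50) were left out, those without a position by their placed neighbours in the table. No 2 of the 7 libraries were copies (chi-square of at least 10.0 per gene).

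Counts were tested with edgeR 4.0.16 in R 4.3.3 (filterByExpr, TMM, quasi-likelihood F test, Dox time as a factor, residual degrees of freedom 4), with a call at a Benjamini-Hochberg adjusted p under 0.05 and a fold above 2 or below 0.5. CPM are TMM-scaled except for cell type markers and for levels over all Dox times. DESeq2 1.42.0 was an alternative, beside other scalings, filters, covariates, chromosomes and libraries. The steps were tested on simulated counts. Deviations of same-numbered libraries of the lines correlated negatively, at −0.539 (4 h), −0.68 (8 h) and −0.603 (24 h) across 9446 genes. The numbers thus did not pair the lines as given, but the deviations were not unrelated either. The main fits held no replicate block, and a pairing with the H3.3K27L numbers crossed was run as an alternative only. Genes were named as the 14 of lowest adjusted p in each direction without overlap, called or leading genes of 29 lists, and H3f3a and H3f3b, with others named after their values were seen. The members, the lists and the comparisons were chosen with earlier results of these data known. The lists were given no set test. Spearman correlations of expression with exon length ran from 0.00726 to 0.199 over the 7 libraries (9255 genes), and its part in the differences was not tested. Tables of differentiated cells and ChIP-seq data were not used here. Promoters came from RefSeq (GRCm38.p6), gene positions from NCBIM37, and no coordinates were converted. The values of 1 called gene are not reported here.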

Additional observations from a re-analysis of the deposited data

Results flagged for a closer look

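Of 30 groups of 4 WT-H3.3 libraries examined for a library far from the others, 1 was flagged, and chance flags about 1 in 20. In Hoxd8 replicate 2 of WT-H3.3 at 24 h was at 5 CPM and the other 3 at 2.75 to 2.85 CPM, a gap of 0.957 of the range. In the genes set aside, those of chromosome 14 had a median log2 difference from WT-H3.3 of 0.557 in the libraries numbered 1 of H3.3K27L at 24 and 72 h, and those of chromosome 8 of −0.529 in replicate 2 at 24 h. The library of H3.3K27L at 72 h that was left out held 4 counts of Grb10 where 0.741 would be the number at the mean WT-H3.3 level.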

How the results depend on the processing

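The 32 called genes kept their direction under every alternative in which they were tested, with log2 fold changes of 3.10 to 3.97 for Grb10, −4.89 to −3.89 for Mest and −1.59 to −1.38 for Peg3, while the call itself was lost in 181 pairs of gene and setting and kept in 562. The number of calls at 24 and 72 h depended on the processing. Against 32 it was 151 with DESeq2 (24 higher, all 32 included), 365 without a filter on low counts, 15 with at least 10 counts in every library, 106 with the left-out library added, 15 without the Dox time factor, 0 with the 24 h libraries alone (561 genes at an unadjusted p under 0.05), 299 with the 72 h libraries alone (95 higher, 31.8%), 52 with no chromosome left out, 19 with chromosome 6 left out too and 15 at a fold of 4. Leaving out single libraries gave 0 to 153. Other scalings gave 28 to 37. With a replicate block 69 genes were called, 30 of the 32 among them, and with the H3.3K27L numbers crossed, a pairing chosen after seeing the data, 63.
At 4 and 8 h the 56 calls became 283 with DESeq2, 482 without a filter, 27 with at least 10 counts in every library, 149 without the Dox time factor, 91 with a replicate block and 461 with the crossed pairing, and single libraries left out gave 0 to 209. Without a filter 9 genes were called for the change from early to late and 7 for that from 24 to 72 h, where leaving out 1 library gave 0 to 1 and the fit without H3.3K27L at 72 h could not be made. The 77 calls between the mutant lines became 182 with DESeq2 and 322 without a filter, and 14 to 142 with 1 library left out. In paired fits with a replicate block 90 were called there and 0 for both changes.
Under other scalings no median of the 29 lists moved beyond the spread between libraries. The other settings were run for the 2-cell, germline and 2 imprinted lists alone, and there medians moved for 2-cell genes with at least 10 counts in every library (−2.01, 2 genes tested), paternally expressed genes at 72 h alone (−0.979) and maternally expressed genes at 24 h alone (0.429), and, with 1 library left out, to −1.45 for 2-cell genes and 0.254 to 0.468 for maternally expressed genes. These list settings and that of chromosome 6 were chosen after seeing the data. Signs turned only for 3 genes that were not called. H3f3a was at −0.0045 with upper-quartile factors, −0.0011 with at least 10 counts in every library, −0.0042 with a replicate block, −0.205 at 24 h alone and at −0.201 to 0.290 with 1 library left out. H3f3b was at 0.151 at 72 h alone and at −0.180 to 0.0699 with 1 library left out, and Ifitm1 at −0.700 to 0.0211. The causes of these shifts were not tested. Low levels limit Hoxd8, Hoxd9 and the 2-cell genes.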

Other observations

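The left-out library of H3.3K27L at 72 h (replicate 2, 68378 counts) was in none of the comparisons of the report, and adding it to the fit gave 106 calls. The 28 lower genes together had 18 counts in it (95% Poisson interval 10.7 to 28.4, for counting error only), where the mean WT-H3.3 level would give 73.1. The 4 higher genes together had 5 counts (1.62 to 11.7) where it would give 1.12. Mest had 0 counts (7.95 at the WT-H3.3 level), Klhl13 had 3 (15) and Peg3 had 5 (8.31). Both sums lay on the side of the other H3.3K27L libraries. For 3 genes the 95% Poisson interval lay outside the WT-H3.3 range (CPM without TMM factors). Grb10 was at 17.1 CPM or more against at most 12.8, Mest at 57.7 or less against at least 97.1, and Klhl13 at 137 or less against at least 203. For the other 29 called genes the interval reached the WT-H3.3 range.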
